A study of Mus musculus with 45 samples.

Results

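The growth hormone, insulin-like growth factor (IGF) and IGF-binding protein axis of the mouse liver was followed through 9 genes: the ligand Igf1, the acid-labile subunit Igfals, the binding proteins Igfbp1, Igfbp2, Igfbp3, Igfbp4 and Igfbp7, the growth hormone receptor Ghr and the transcription factor Stat5b. They were taken by gene symbol, with earlier results of these data known, and are 9 of the 23227 genes counted. All 9 were among the 14067 genes with enough reads to be tested. The samples were 45 polyA RNA libraries from livers of wild type C57BL/6J mice, all killed at 24 weeks of age after a night without food. Mice ate chow throughout, a high-fat diet (HFD) for 6 weeks from 18 weeks of age, or a high-fat diet for 16 weeks from 8 weeks of age. On each diet 3 libraries came from mice given neither drug (called basal here) and 3 from mice given metformin in drinking water at 270 mg/kg lean body mass per day. On chow and on the 16-week diet, further groups were taken 15, 30, 60 and 120 min after an intraperitoneal injection of insulin at 1 U/kg. Each of these had 3 libraries, except 30 min on the 16-week diet with 6. Sex was not given in the labels.

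Growth hormone from the pituitary binds GHR on hepatocytes, JAK2 then phosphorylates STAT5B, and STAT5B switches on Igf1 and Igfals. IGF-I leaves the liver and circulates mostly in a ternary complex with IGFBP3 and the acid-labile subunit, which prolongs its life in blood. IGFBP1 and IGFBP2 bind IGFs outside that complex; Igfbp1 is a classical hepatic gene that fasting raises through FoxO1 and insulin represses. IGFBP4 binds IGFs and is cleaved by the protease PAPP-A, and IGFBP7 binds IGFs only weakly and is found in vessel walls and extracellular matrix.

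The libraries held 18193181 to 50253493 counted reads. The design text speaks of 3 or more mice for each group or time, but no label ties a library to a mouse, so p-values measure the spread between these libraries. Summed skeletal muscle markers ranged from 0.434 to 1771 CPM (read counts scaled to library size, the unit of all levels here). Pancreatic acinar markers ranged from 8.12 to 24003 CPM, so some libraries held RNA of neighbouring tissue. Acinar sums were 374 to 2293 CPM in chow basal and 10.6 to 221 CPM in 16-week HFD basal libraries. Without metformin the medians were 414 CPM on chow and 32.9 CPM on 16-week HFD. The highest acinar sum was nevertheless on 16-week HFD at 15 min, and the highest muscle sum in 6-week HFD basal. The part of this RNA in the values below was not tested. Hepatocyte markers summed to between 82140 and 178342 CPM, and all 12 were tested. Metformin libraries had fewer reads in long genes than the rest (rank correlation of exon length with the deviation of each gene, -0.61 to -0.13), as did the first 16-week HFD basal library (-0.22). Correlations with GC content were -0.29 to -0.08 in chow basal and -0.23 to -0.15 in 6-week HFD basal libraries. They were 0.17 to 0.32 in 16-week HFD basal libraries. At 15 min they were -0.23 to -0.12 on chow and 0.13 to 0.33 on 16-week HFD. In these libraries the GC trend went with the 16-week diet. At the later insulin times chow and 16-week HFD overlapped. At 30 min on the 16-week diet, replicates 1 to 3 had correlations with GC content of 0.19 to 0.22 and replicates 4 to 6 of -0.22 to -0.13. Where a member passed or missed the test only when both trends were removed, or only when they were not, that value is given.

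**Figure D1:**
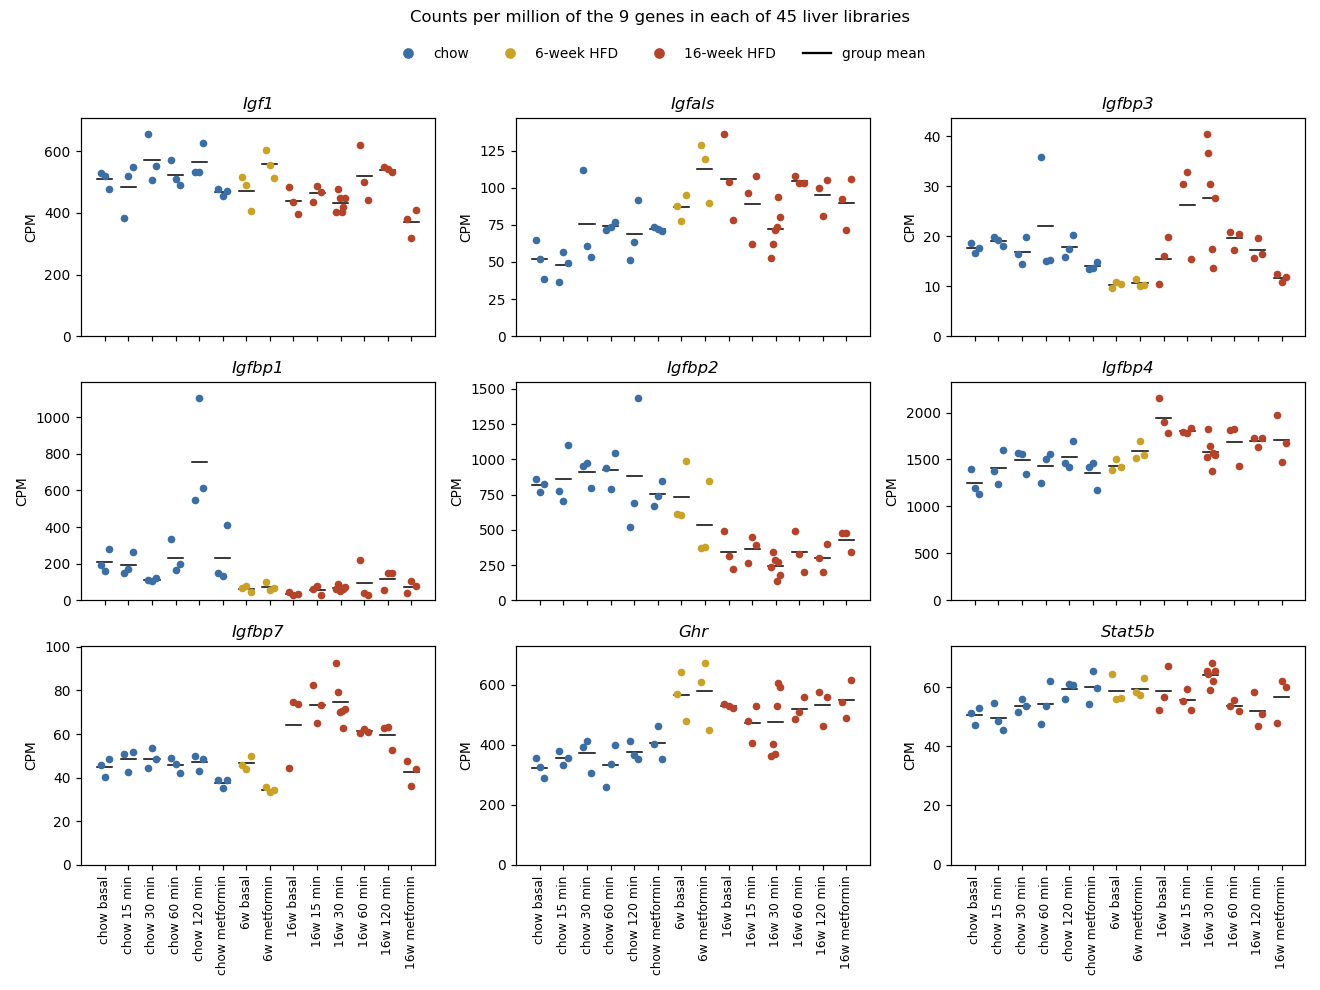
CPM (linear axes from 0) of each of the 9 genes in all 45 libraries, 1 point per library, with bars at the means of the 14 groups; 6w and 16w are the weeks of high-fat diet and minutes are times after insulin. Igfbp2 was lower in every 16-week HFD library without metformin (135 to 495 CPM) than in every chow library without metformin (522 to 1433 CPM), and Igfbp1 reached its highest group mean, 755 CPM, on chow at 120 min.

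Per kilobase of merged exon, the level in chow basal livers was highest for Igfbp2, at 616 ± 35.4 CPM per kb (SD, n = 3), and for Igfbp4, at 603 ± 67.4. Those neighbours in the order did not differ beyond their spread. Igfbp1 followed at 139 ± 40.0 CPM per kb. Ghr at 72.8 ± 7.50 and Igf1 at 65.1 ± 3.51 CPM per kb overlapped within their spread. Igfbp7 stood at 36.9 ± 3.44 and Igfals at 24.5 ± 6.27 CPM per kb. The lowest were Stat5b, 9.27 ± 0.562, and Igfbp3, 7.24 ± 0.437 CPM per kb. Over the 14 group means Igfbp1 varied most, 20.9-fold from lowest to highest, against 3.82-fold for Igfbp2 and 1.29-fold for Stat5b.

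In the deposited gene models (mouse build mm9), Igfbp1 lies on the plus strand at chr11:7097790-7102549 and Igfbp3 on the minus strand at chr11:7106096-7113926, so the 2 genes converge with 3546 bases between them. Igfbp2 (chr1:72871054-72899045, plus strand) ends 5593 bases from Igfbp5, and Stat5b (chr11:100642045-100711899, minus strand) lies 8765 bases from its paralog Stat5a. Igfbp4 is at chr11:98902574-98913957 and Igf1 at chr10:87321801-87399792, both on the plus strand. Igfals, also on the plus strand, is at chr17:25015715-25018953, and Ghr, on the minus strand, at chr15:3267760-3533230. Igfbp7 (chr5:77778265-77837070, minus strand) shares 89 exon bases with the antisense gene Polr2b, and the library kit does not mark strand, so its counts may hold some Polr2b reads; its values are uncertain to that extent. No other member shares exon bases with another gene.

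After 16 weeks of high-fat feeding, members of the axis had changed in both directions. In basal livers Igfbp1 was 5.83-fold and Igfbp2 2.36-fold lower after 16 weeks of HFD than on chow, while Igfals was 2.05-fold, Ghr 1.64-fold, Igfbp4 1.56-fold and Igfbp7 1.44-fold higher. These 6 of 9 members passed the test (edgeR quasi-likelihood F test over all genes, Benjamini-Hochberg adjusted p below 0.05), where 32.3% of all genes tested did. Averaged over basal and the 4 insulin times, 7 of 9 passed, where 63% of all genes did, a background so high that the count says little about the members. The median log2 fold change of the 9 members in the basal comparison was 0.22, against 0.02 for all genes. In such bulk tissue, fewer cells of a type and less RNA per cell cannot be told apart.

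Igf1, the circulating growth factor itself, moved little. Its basal CPM were 528, 520 and 477 on chow, 515, 492 and 407 after 6 weeks of HFD and 484, 434 and 397 after 16 weeks. The 3 diets overlapped, and the log2 fold change of 16-week HFD against chow was -0.21 ± 0.12 (SE; adjusted p = 0.183), with an approximate 95% interval from -0.45 to 0.02. With the length and GC trends removed that difference was 0.15. Averaged over the 5 times it passed the test at -0.15 ± 0.05 (adjusted p = 0.0150), but not with the trends removed, where it was -0.03 (adjusted p = 0.775). Igf1 has the longest exons of the 9 genes, 7817 bases, and the lowest GC content, 38.0%. Among single insulin times the test was passed at 30 min alone (-0.40 ± 0.10, adjusted p = 0.00327), where chow held 655, 505 and 552 CPM and the 6 HFD libraries 402 to 477 CPM. Without the first chow library the adjusted p was 0.0665, and with the trends removed and the replicate number as a block the difference was -0.20 (adjusted p = 0.331). At 15, 60 and 120 min the adjusted p was 0.752 or more.

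Igfals, which encodes the acid-labile subunit of the circulating complex, was higher on the fat diet. Chow basal libraries held 64.8, 52.0 and 38.3 CPM, and 16-week HFD basal libraries 136, 104 and 78.0 CPM. Every HFD value was above every chow value, and the log2 fold change was 1.04 ± 0.25 (adjusted p = 0.00144). Over the 5 times it was 0.57 ± 0.11 (adjusted p = 2.32e-05), and it passed under every alternative tried. At 15 min it passed at 0.90 ± 0.25 (adjusted p = 0.00778), with adjusted p of 0.0566 without the first chow library and 0.0545 without the third HFD library. At 30 min the difference was -0.06 ± 0.21 (adjusted p = 0.836), since the 6 HFD libraries held 52.6 to 94.0 CPM and the 3 chow libraries 112, 61.0 and 53.4 CPM. At 60 min it was 0.50 ± 0.24 (adjusted p = 0.141), with every HFD library above every chow library, and passed when only the groups compared were fitted (0.49, adjusted p = 0.0119). At 120 min it was 0.48 ± 0.25 (adjusted p = 0.142), with overlap, and passed without the third chow library (0.74, adjusted p = 0.049).

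Of the 3 annotated starts of Igfals, the first and second each carry the spaced palindrome TTCNNNGAA, the type of site that STAT5 proteins are known to bind. These starts are shown because Igfals is a STAT5B target and a member that rose. In 14 RefSeq windows of the 9 members (GRCm38.p6, 250 bases before to 50 bases after a start, 300 bases each), TTCNNNGAA was found in 1 of 9 members, Igfals. Of all 32851 RefSeq windows of this length, 8.3% hold it, a share of windows and not of genes. Capitals mark TTCNNNGAA (TTCTCAGAA beginning 236 bases before the first start, TTCCTAGAA beginning 58 bases before the second) and, in the second window, the forkhead-type motif GTAAACA on the other strand, printed as TGTTTAC. Both windows shown are on the plus strand, at chr17:24877594-24877893 and chr17:24877981-24878280. The window of the third start of Igfals, at chr17:24878497-24878796, held neither motif and is not shown.
Igfals, first start: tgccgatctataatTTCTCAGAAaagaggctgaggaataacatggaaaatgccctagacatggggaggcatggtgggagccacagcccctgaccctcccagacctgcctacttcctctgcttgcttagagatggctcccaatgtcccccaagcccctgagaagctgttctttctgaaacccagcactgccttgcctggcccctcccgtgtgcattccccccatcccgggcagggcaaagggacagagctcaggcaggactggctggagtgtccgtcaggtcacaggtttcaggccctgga
Igfals, second start: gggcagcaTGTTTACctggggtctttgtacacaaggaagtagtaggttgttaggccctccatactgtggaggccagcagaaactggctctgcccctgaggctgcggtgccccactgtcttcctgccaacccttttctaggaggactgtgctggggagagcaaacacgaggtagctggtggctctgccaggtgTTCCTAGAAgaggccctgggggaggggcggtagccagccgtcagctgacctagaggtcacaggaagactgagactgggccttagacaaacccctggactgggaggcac

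Igfbp3, the remaining partner of the ternary complex, is known to be made in liver mainly by cells other than hepatocytes. Its basal CPM were 18.7, 16.6 and 17.7 on chow and 10.4, 16.1 and 19.9 after 16 weeks of HFD. The groups overlapped (log2 fold change -0.19 ± 0.29, adjusted p = 0.650), and over the 5 times the difference was 0.15 ± 0.13 (adjusted p = 0.295). Without the first chow library at 60 min, whose 35.9 CPM stood above the 15.0 and 15.2 of its group, that mean was 0.26 and passed the test (adjusted p = 0.0471). At 30 min the difference passed at 0.71 ± 0.26 (adjusted p = 0.0286) but not on leaving out the first or second chow library (0.0933 and 0.127) or the first or second HFD library (0.0760 and 0.0651), nor when only the groups compared were fitted (0.111). There, HFD replicates 1 to 3 held 30.5 to 40.4 CPM and replicates 4 to 6 held 13.7 to 27.6 CPM. At 15, 60 and 120 min the adjusted p was 0.245 or more.

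Igfbp1, the fasting-induced and insulin-repressed binding protein, showed the largest basal diet difference of the 9 members. Chow basal libraries held 191, 162 and 279 CPM and 16-week HFD basal libraries 44.3, 31.8 and 32.4 CPM. The ranges lay far apart, with a log2 fold change of -2.54 ± 0.54 (adjusted p = 0.000405). Over the 5 times it was -1.79 ± 0.23 (adjusted p = 2.32e-08), and all alternatives kept both calls. At 120 min the difference was as large, -2.67 ± 0.54 (adjusted p = 0.000416). At 30 min it was -0.70 ± 0.43 (adjusted p = 0.202), although every HFD library (54.2 to 92.3 CPM) was below every chow library (105 to 123 CPM), and it passed when only the groups compared were fitted (-0.72, adjusted p = 0.00476). At 60 min it was -1.27 ± 0.51 (adjusted p = 0.0725). The 60 min value turned on the first HFD library, which held 221 CPM beside 41.7 and 27.2; without it the difference was -2.75 (adjusted p = 0.000225). At 15 min the test was passed (-1.77 ± 0.52, adjusted p = 0.0126), but not without the third chow library (0.0637) or the third HFD library (0.0789).

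The start of Igfbp1 is shown because FoxO factors act on this gene through an insulin response sequence near its start. Capitals mark CAAAACA, a forkhead-type motif, which begins 108 bases before the start in the window at chr11:7197537-7197836 (GRCm38.p6, RefSeq, plus strand). CAAAACA, searched on both strands, was found in 1 of the 9 members, which have 14 windows, and in 6.28% of all windows. It was also found in 2 of 10 genes with a window on a list of other FoxO1-type insulin-repressed genes, G6pc and Irs2. A gene can have several windows, so counts of genes and shares of windows are unlike measures. The related GTAAACA was found in Igfals alone among the members and in 3.65% of all windows. TTCNNNGAA, GTAAACA and CAAAACA do not overlap one another in the windows shown.
Igfbp1: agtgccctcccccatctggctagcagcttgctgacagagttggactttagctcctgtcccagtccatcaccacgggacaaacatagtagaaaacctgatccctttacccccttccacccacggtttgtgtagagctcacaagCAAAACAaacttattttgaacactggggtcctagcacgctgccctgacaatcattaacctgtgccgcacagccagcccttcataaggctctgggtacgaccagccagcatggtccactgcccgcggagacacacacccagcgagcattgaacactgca

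Igfbp2, a binding protein of fetal and adult hepatocytes, was the member whose diet difference recurred at every time. Chow basal libraries held 862, 769 and 823 CPM and 16-week HFD basal libraries 495, 318 and 226 CPM. No values overlapped, and the log2 fold change was -1.24 ± 0.36 (adjusted p = 0.00731), or -1.01 (adjusted p = 0.0571) without the third HFD library. It passed at all 4 insulin times too, at -1.23 ± 0.36 (15 min, adjusted p = 0.0114), -1.91 ± 0.29 (30 min, 7.77e-06), -1.44 ± 0.36 (60 min, 0.00371) and -1.53 ± 0.36 (120 min, 0.00185). At 15 min it did not without the third chow library (0.0661) or the first HFD library (0.0674). The mean of the 5 times was -1.47 ± 0.16 (adjusted p = 5.33e-10). Over the 15 chow and 18 HFD libraries without metformin, the lowest, median and highest were 522, 823 and 1433 CPM on chow and 135, 296 and 495 CPM on HFD. These ranges did not overlap. With the trends removed the mean difference was -1.60, so it was no smaller.

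Igfbp4, which sequesters IGFs until it is cleaved, rose modestly. Its basal CPM were 1402, 1201 and 1134 on chow and 2150, 1901 and 1784 after 16 weeks of HFD. The groups were apart, with a log2 fold change of 0.64 ± 0.12 (adjusted p = 0.000104). The mean over the 5 times was 0.30 ± 0.05 (adjusted p = 9.76e-06), which every alternative kept past the threshold. At 15 min it passed at 0.36 ± 0.12 (adjusted p = 0.0278), but not on leaving out any of 5 of the 6 libraries (0.0560 to 0.152, all but the third chow library) or with the trends removed (0.0982). At 30, 60 and 120 min the differences of 0.08, 0.23 and 0.16 did not pass.

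Igfbp7, the low-affinity binding protein of vessels and matrix, was higher on HFD at nearly every time. Basal CPM were 45.8, 40.2 and 48.4 on chow and 44.6, 74.5 and 73.9 after 16 weeks of HFD. The first HFD library, the one with fewer reads in long genes, lay among the chow values and the others above them. The log2 fold change was 0.52 ± 0.14 (adjusted p = 0.00384), but 0.26 (adjusted p = 0.166) with the trends removed and 0.51 (adjusted p = 0.0669) when only the groups compared were fitted. It passed at 15 min (0.60 ± 0.14, adjusted p = 0.00195), 30 min (0.61 ± 0.12, 0.000248) and 60 min (0.42 ± 0.14, 0.0261), and not at 120 min (0.34 ± 0.14, 0.0669). The 60 min call was lost on leaving out the second or the third library of either diet (0.0521 to 0.106), and the 120 min difference passed without the third HFD library (0.0423). The mean over the 5 times, 0.50 ± 0.06 (adjusted p = 1.06e-08), passed under every alternative.

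Markers of endothelium, stellate cells and macrophages were higher beside Igfbp7, in a comparison where 63% of all genes passed. Of 14 liver endothelium markers 12 were higher over the 5 times, none was lower, and all 14 had enough reads to be tested. Their summed level was 393 to 624 CPM (median 495) in chow libraries and 427 to 846 CPM (median 734) in 16-week HFD libraries. Of 14 stellate cell and fibroblast markers 10 were higher and 1 lower (319 to 428 against 267 to 746 CPM), and of 14 Kupffer cell and macrophage markers 12 were higher (193 to 761 against 313 to 1360 CPM). Of 8 cholangiocyte markers 5 were tested, and 1 was higher (Spp1, 0.29 ± 0.11, adjusted p = 0.0211) and 2 were lower (Krt19, -0.59 ± 0.25, 0.0393, and Sox9, -0.30 ± 0.13, 0.0447). Their sum was 33.3 to 47.8 CPM on chow and 30.7 to 76.6 CPM on HFD (medians 38.2 and 41.5). Of 12 hepatocyte markers 1 was higher and 9 were lower. The part of these shifts in the values of Igfbp7, Igfbp3 and the other members was not tested.

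Ghr, the receptor at the head of the pathway, was higher on both lengths of fat feeding. Chow basal libraries held 354, 324 and 288 CPM, 6-week HFD libraries 570, 643 and 480, and 16-week HFD libraries 536, 529 and 522. Neither HFD group overlapped chow, with log2 fold changes of 0.81 ± 0.18 at 6 weeks (adjusted p = 0.00262) and 0.72 ± 0.18 at 16 weeks (adjusted p = 0.00210), both kept by all alternatives; the 2 comparisons share their chow libraries. The mean over the 5 times was 0.53 ± 0.08 (adjusted p = 4.14e-07), and 0.60 with the trends removed. At 15 min the 3 HFD libraries (404 to 529 CPM) were above the 3 chow libraries (332 to 377 CPM), at 0.41 ± 0.18 (adjusted p = 0.0883). That difference passed with the trends removed (0.57, 0.0111), with a replicate block (0.0443) and when only the groups compared were fitted (0.0443). Ghr passed at 60 min (0.65 ± 0.18, adjusted p = 0.00817), though not without the first chow library (0.0809). At 120 min it passed (0.50 ± 0.18, 0.0327), though not without the second or the third chow library or the first or the third HFD library (0.0855 to 0.110). At 30 min, HFD replicates 1 to 3 held 361 to 401 CPM, within the 306 to 413 CPM of chow, and replicates 4 to 6 held 528 to 606 CPM. The difference there was 0.36 ± 0.16 (adjusted p = 0.0642), and passed with the trends removed (0.37, 0.0388) and without the first, second or the third HFD library (0.0263 to 0.0449).

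Stat5b, which carries the receptor's signal to the nucleus, varied least of the 9 over the group means. Basal CPM were 51.2, 47.1 and 53.0 on chow and 52.2, 56.8 and 67.0 after 16 weeks of HFD. The ranges overlapped (log2 fold change 0.22 ± 0.10, adjusted p = 0.0990), and the test was passed without the first HFD library (0.30, adjusted p = 0.0420). The mean over the 5 times was 0.09 ± 0.04 (adjusted p = 0.0867), -0.01 with the trends removed, and passed without the third chow library at 60 min (0.0316) or the first HFD basal library (0.0451). It passed at 30 min (0.26 ± 0.09, adjusted p = 0.0227), but not with the trends removed (0.111), without the first or the third chow library (0.104 and 0.0649) with a replicate block (0.0830) or with only HFD replicates 1 to 3 (0.0705). At 15 and 60 min the adjusted p was 0.234 or more. At 120 min the difference was -0.19 ± 0.10 (adjusted p = 0.168), and passed with the trends removed (-0.32, adjusted p = 0.00704).

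At the single insulin times, each a comparison of libraries used at no other time, 5 members passed at 15 min (24.4% of all genes), 5 at 30 min (37.3%), 3 at 60 min (22.4%) and 3 at 120 min (28.2%). Of these 16 calls, 6 were kept on leaving out any 1 library and under every other alternative: Igfbp2 at 30, 60 and 120 min, Igfbp7 at 15 and 30 min and Igfbp1 at 120 min.

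**Figure D2:**
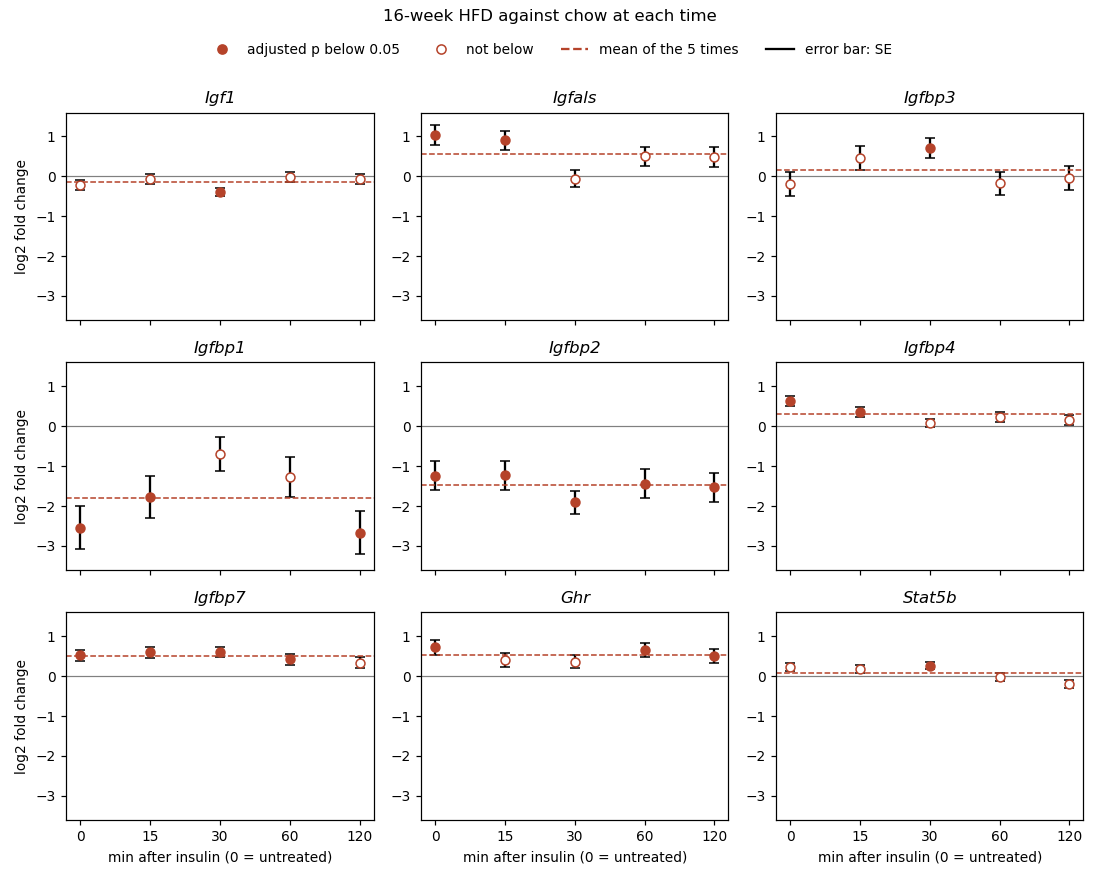
Log2 fold change of 16-week HFD against chow (vertical axis) in basal livers and 15, 30, 60 and 120 min after insulin (horizontal axis, evenly spaced), with SE bars, filled points for adjusted p below 0.05 and a dashed line at the mean of the 5 times. Igfbp2 lies below 0 with a filled point at all 5 times, and Igf1 and Stat5b have a filled point at 30 min alone, at -0.40 and 0.26.

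After 6 weeks of HFD, 3 of 9 members passed against chow, where 11% of all genes did: Ghr, as given, Igfals and Igfbp1. Igfals held 88.0, 77.5 and 94.8 CPM, above all chow basal values. Its log2 fold change was 0.74 ± 0.25 (adjusted p = 0.0439), and it did not pass without any 1 of 5 of the 6 libraries (0.0614 to 0.235, all but the first chow library) or with no filter on low counts (0.0528). Igfbp1 held 66.6, 79.6 and 44.0 CPM, below all chow basal values, at -1.73 ± 0.52 (adjusted p = 0.0259). It did not pass without the first or the third HFD library (0.0766 and 0.107) or the third chow library (0.119). Igfbp2, at 616, 605 and 990 CPM, overlapped chow (-0.15 ± 0.35, adjusted p = 0.850). Igfbp3 held 9.68, 10.8 and 10.5 CPM, under every chow basal value, at -0.78 ± 0.29 (adjusted p = 0.0818), and passed when only the groups compared were fitted (0.00247) and with a replicate block (0.0357). Igf1, Igfbp4, Igfbp7 and Stat5b did not pass, with adjusted p of 0.168 or more.

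Between 6 and 16 weeks of HFD, 3 of 9 members passed, where 10.2% of all genes did. Igfbp2 fell by 1.09 on the log2 scale (SE 0.36, adjusted p = 0.0437), from 605 to 990 CPM down to 226 to 495 CPM with no overlap. Igfbp4 rose by 0.44 ± 0.12 (adjusted p = 0.0178), from 1384 to 1500 up to 1784 to 2150 CPM with no overlap, and Igfbp7 rose by 0.47 ± 0.14 (adjusted p = 0.0271). None of the 3 calls was kept by every alternative. Igfbp2 was lost without any 6-week library or the second or the third 16-week library (0.0579 to 0.199), Igfbp4 without the first library of either group (0.0766 and 0.0835), and Igfbp7 without the first or second 6-week or the second or the third 16-week library (0.0938 to 0.179). With the trends removed Igfbp4 (0.28, adjusted p = 0.0754) and Igfbp7 (0.25, adjusted p = 0.318) did not pass either. Ghr did not pass (-0.09 ± 0.18, interval from -0.44 to 0.25). Igf1, Igfals, Igfbp1, Igfbp3 and Stat5b did not either, with adjusted p of 0.207 or more.

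After insulin in fasted mice 1 member passed the test, Igfbp1 on chow. None of the 14 groups was labelled as injected without insulin or as kept for a matching time without it. Insulin, injection and elapsed time therefore cannot be told apart in the comparisons with basal. It passed over the 4 times together (adjusted p = 0.00344), 1 of 9 members where 4.83% of all genes passed, though not without the second chow library at 120 min (0.0651). Chow libraries held 191, 162 and 279 CPM at basal, 147, 169 and 264 at 15 min, 110, 105 and 123 at 30 min, 334, 164 and 198 at 60 min and 547, 1102 and 616 at 120 min. Every 30 min library was below every basal library and every 120 min library above. Against basal the log2 fold changes were -0.12 ± 0.51 at 15 min, -0.91 ± 0.51 at 30 min (adjusted p = 0.734), 0.14 ± 0.51 at 60 min and 1.84 ± 0.52 at 120 min (adjusted p = 0.0306). The 4 share their basal libraries. The 120 min value, 3.58-fold, was lost without the second or the third 120 min library or any basal library (0.0510 to 0.175), and with the trends removed and a replicate block (0.0561). For the other 8 members the adjusted p over the 4 times was 0.207 (Igfals) or more, and their differences from basal lay between -0.12 (Igfals at 15 min) and 0.55 (Igfals at 30 min). No member passed at 15, 30 or 60 min on chow, where 1.13%, 0.0711% and 1.39% of all genes did, and 1 did at 120 min, where 5.08% did.

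On 16-week HFD Igfbp1 held 44.3, 31.8 and 32.4 CPM at basal and 57.9, 147 and 151 CPM at 120 min. These did not overlap, at 1.71 ± 0.52 (adjusted p = 0.380), in a comparison where 0 of the 14067 genes tested passed. No member passed over the 4 times together, where 2.34% of all genes did and 2618 genes had an unadjusted p below 0.05. The adjusted p was 0.119 for Igfbp3, 0.120 for Stat5b, 0.172 for Igf1, 0.179 for Igfbp1 and 0.222 or more for the rest. Without the first HFD library at 60 min Igfbp1 passed that test (adjusted p = 0.0420). For no member did the insulin response pass the test of a difference by diet over the 4 times (0.263% of all genes passed, and 2001 had an unadjusted p below 0.05; adjusted p of 0.224 or more, Igfbp1 0.308). At 30 min the response of Igfbp1 on HFD less that on chow was 1.84 ± 0.69 (adjusted p = 0.234), and 1.82 (adjusted p = 0.0239) when only the groups compared were fitted. For Igfbp4 that difference by diet at 30 min passed with DESeq2 alone (-0.57, adjusted p = 0.044).

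At 30 min on HFD no member passed in the 6 libraries (3.55% of all genes), but 3 did when only replicates 1 to 3 were used. The share of all genes passing in that second fit is not given here, so the count alone says little about the members. Igfbp3 was then 1.22 higher than basal on the log2 scale (adjusted p = 0.00288), with Ghr at -0.48 (adjusted p = 0.0302) and Igfals at -0.77 (adjusted p = 0.0350). With all 6 libraries these were 0.84 ± 0.26 (adjusted p = 0.0591), -0.15 ± 0.15 (0.585) and -0.55 ± 0.21 (0.107). A replicate block gave adjusted p of 0.00393 for Igfbp3, 0.0331 for Ghr and 0.0368 for Igfals. With the trends removed as well, the adjusted p were 0.00303, 0.0163 and 0.0229. Replicate numbers 4 to 6 occur in no other group, so under a block those libraries add nothing to the difference. The 2 sets of 3 libraries do not overlap for Igfbp3, Ghr or Igfals (52.6 to 71.4 against 73.3 to 94.0 CPM). Leaving out replicate 5 (0.98, adjusted p = 0.0223) or the third basal library (1.06, adjusted p = 0.0382) also brought Igfbp3 past the test, as did DESeq2 (0.0249). Igfbp4 passed there with DESeq2 alone (-0.30, adjusted p = 0.0445).

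**Figure D3:**
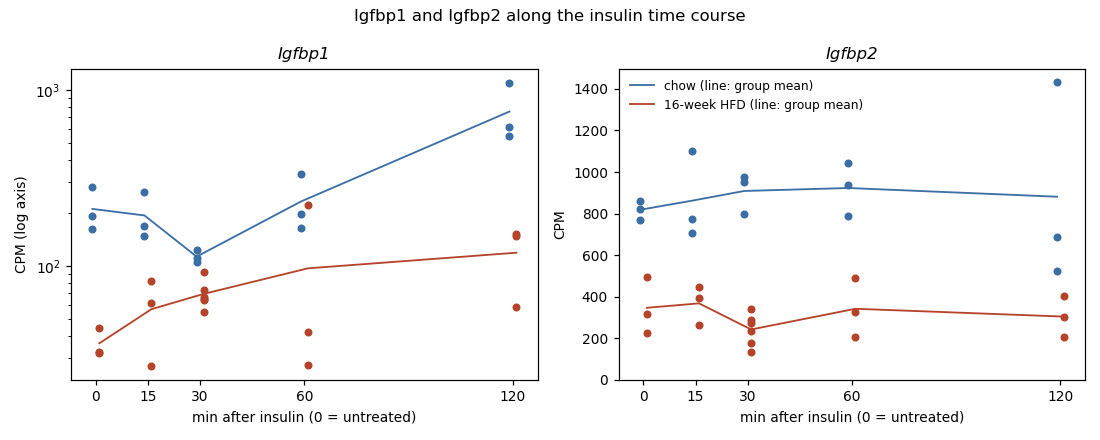
CPM of Igfbp1 (left, log axis) and Igfbp2 (right, linear axis from 0) against minutes after insulin on chow and 16-week HFD, 1 point per library and lines through group means. Igfbp1 on chow goes through 105 to 123 CPM at 30 min and reaches 547 to 1102 CPM at 120 min, and Igfbp2 on chow stays above the 16-week HFD points at every time.

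Some other genes listed as insulin-repressed changed on chow, in both directions at 120 min. Of 12 genes on the FoxO1-type list, 5 passed over the 4 chow times together, where 4.83% of all genes did, among them Angptl4 (adjusted p = 0.000736), Ppargc1a (0.00141), Trib1 (0.00154) and Foxo1 (0.0114). At 120 min 3 were higher and 2 lower than basal. Ppargc1a, a coactivator of gluconeogenic genes, was higher at 1.02 ± 0.23 (adjusted p = 0.00567) and Foxo1 at 0.69 ± 0.17 (0.00978), while Angptl4, an inhibitor of lipoprotein lipase, was lower at -0.68 ± 0.16 (0.00934). The list's median was 0.52, against 0.00 for all genes.

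Under metformin 1 member passed the test, Igfbp7, lower on 16-week HFD. On chow no member passed (1.94% of all genes, 2253 genes with an unadjusted p below 0.05, and none of the members with DESeq2). On 6-week HFD none passed either (3.17% of all genes, 2886 with an unadjusted p below 0.05), and on 16-week HFD 1 of 9 did, where 28.4% of all genes passed. Igfbp7 held 47.6, 36.3 and 43.9 CPM with metformin on 16-week HFD, against 44.6, 74.5 and 73.9 without. The ranges overlap through the first untreated library, and the log2 fold change was -0.60 ± 0.14 (adjusted p = 0.00180). It was -0.75 (adjusted p = 0.000583) with the trends removed. In fits of only these 2 groups it did not pass, at adjusted p = 0.187, or 0.158 with a replicate block.

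On 6-week HFD Igfbp7 held 35.7, 33.3 and 34.2 CPM with metformin, all below the 45.6, 44.1 and 50.0 without. Its log2 fold change of -0.44 ± 0.14 missed the threshold (adjusted p = 0.0712), and passed with the trends removed (-0.61, 0.0194), when only the groups compared were fitted (0.0298, or 0.0363 with a replicate block) and with DESeq2 (0.0436). On chow it held 38.7, 35.2 and 39.1 CPM against 45.8, 40.2 and 48.4, again without overlap, at -0.25 ± 0.14 (adjusted p = 0.377). The effect on 16-week HFD less that on chow was -0.34 ± 0.20 (adjusted p = 0.305), and passed at -0.55 without the first 16-week basal library (0.0483). The marker counts with metformin on 16-week HFD are read against the 28.4% of all genes that passed there. Both come from the fit with the length and GC trends left in. Of 14 liver endothelium markers 9 were lower and none higher (summed 301 to 413 CPM against 427 to 783 CPM). Of 14 stellate cell and fibroblast markers 6 were lower (289 to 392 against 267 to 578 CPM). Of 12 hepatocyte markers 4 were higher, a share near that of all genes. Their part in the result was not tested.

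No other member passed under metformin. Igfbp1 on 16-week HFD held 40.5, 106 and 78.7 CPM against 44.3, 31.8 and 32.4 without, at 1.05 ± 0.52 (adjusted p = 0.126, interval from 0.04 to 2.07). Igf1 on 16-week HFD held 379, 320 and 408 CPM against 484, 434 and 397 (-0.25 ± 0.12, adjusted p = 0.130), and on 6-week HFD 604, 555 and 512 against 515, 492 and 407 (0.24 ± 0.12, adjusted p = 0.257). Both pairs of ranges overlap. Stat5b on 16-week HFD was at -0.05 ± 0.10, and at 0.26 (adjusted p = 0.0469) with the trends removed. Igfbp2 on 6-week HFD, at -0.47 ± 0.35 (adjusted p = 0.468), passed with a replicate block when only the groups compared were fitted (-0.55, 0.0491). The remaining differences under metformin, those of Igfbp7 apart, lay between -0.41 (Igfbp3 on 16-week HFD) and 0.48 (Igfals on chow), with adjusted p of 0.203 or more.

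**Figure D4:**
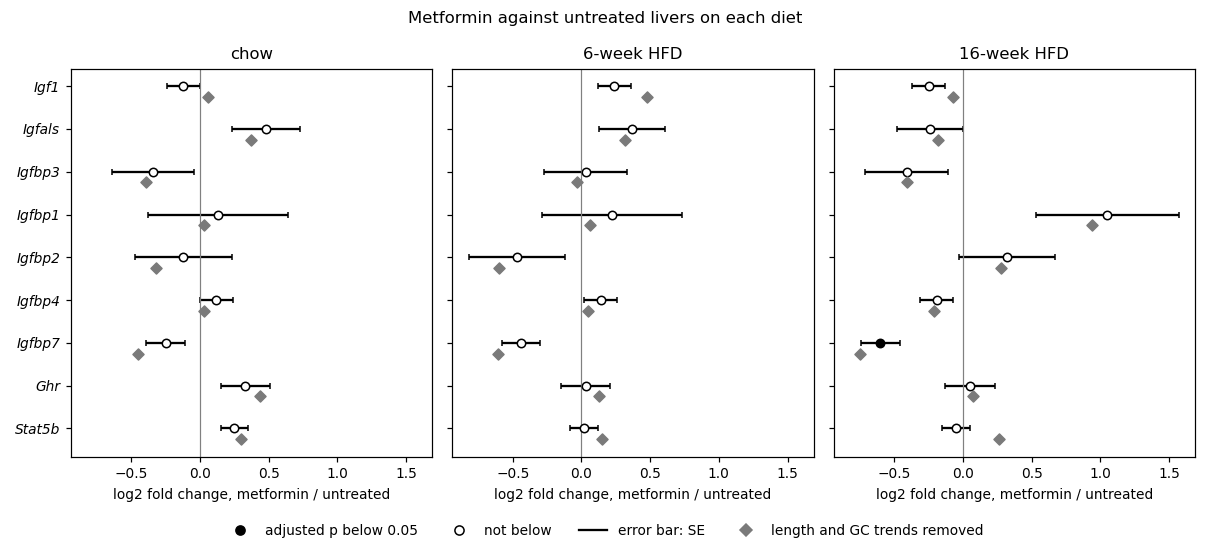
Log2 fold change of metformin against untreated livers on chow, 6-week and 16-week HFD for the 9 genes, circles with SE bars for the fit reported (filled for adjusted p below 0.05) and diamonds with the length and GC trends removed. Igfbp7 lies below 0 on all 3 diets, at -0.25, -0.44 and -0.60, and Igf1 and Stat5b shift to the right when the trends are removed.

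Within metformin-treated livers, 3 of 9 members differed between 16-week HFD and chow, where 20.4% of all genes did. Igfbp1 was lower, at 40.5, 106 and 78.7 CPM against 148, 133 and 410 (-1.62 ± 0.52, adjusted p = 0.0243). Igf1 was lower, at 379, 320 and 408 against 478, 454 and 471 CPM (-0.34 ± 0.12, 0.0436), and Igfbp4 higher, at 1970, 1476 and 1678 against 1422, 1468 and 1174 CPM (0.33 ± 0.12, 0.0446). None of the ranges overlap. All 3 calls depended on single libraries: without the third chow library Igfbp1 was at -0.91 (adjusted p = 0.269), and without the first HFD library 0 members passed, with adjusted p of 0.153 for Igfbp1, 0.104 for Igf1 and 0.253 for Igfbp4. Igf1 was also lost without any chow library (0.0697 to 0.104) or the second HFD library (0.176), and Igfbp4 without the first or the third chow library (0.0616 and 0.231) or the third HFD library (0.0597). With the trends removed Igf1 was at 0.03 and Igfbp4 at 0.22 (adjusted p = 0.122), while Ghr (0.58, 0.0128) and Igfbp2 (-1.0, 0.0354) passed. In the fit reported Ghr was at 0.43 (0.0776) and Igfbp2 at -0.81 (0.102). With the trends left in, Ghr also passed with a replicate block (0.44, 0.0375) and with DESeq2 (0.44, 0.0499). Igfals, Igfbp3, Igfbp7 and Stat5b had adjusted p of 0.380 or more. After 6 weeks no member differed from chow under metformin (4.43% of all genes, 2596 genes with an unadjusted p below 0.05); Ghr was at 0.51 ± 0.18 (adjusted p = 0.0943) and passed with the trends removed (0.52, 0.0468), with a replicate block (0.0459) and without the third HFD library (0.0375), and Igfbp1 at -1.64 ± 0.52 (0.0619) passed with DESeq2 (0.0345). Igfals, at 0.64 ± 0.25 (0.138), passed when only the groups compared were fitted (0.0437), and the other 6 members had adjusted p of 0.263 or more.

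In the mean over the 5 times, where 63% of all genes passed, the counts of other pathway genes are read against that share. Of 16 other genes of growth hormone signalling, all tested, 9 were higher and 3 lower on 16-week HFD over the 5 times, with a median log2 fold change of 0.22 against 0.03 for all genes. Stat5a, the paralog of Stat5b (log2 fold change 0.61 ± 0.07 SE, adjusted p = 3.21e-09), and Prlr, the prolactin receptor (0.59 ± 0.10, adjusted p = 4.60e-06), were among those higher. Stat5a held 12.4, 11.8 and 11.6 CPM in chow basal livers and 18.9, 18.8 and 22.2 CPM after 16 weeks of HFD, without overlap, where the ranges of Stat5b overlapped. Ptpn6, a phosphatase that ends cytokine receptor signals, was higher too (0.37 ± 0.07, 1.86e-05), and Jak2, the kinase bound to GHR, did not pass (0.05 ± 0.05, adjusted p = 0.402).

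The feedback inhibitors among these genes, direct STAT5 targets, did not move together. Socs2 was lower (-1.25 ± 0.32, adjusted p = 0.00113) and Cish higher (1.41 ± 0.43, 0.00515) over the 5 times. Both were low and varied between libraries, with 11.2 ± 2.45 and 4.40 ± 2.16 CPM of Socs2 (SD, n = 3) on chow and 16-week HFD at basal, and 3.56 ± 0.816 and 11.9 ± 11.6 CPM of Cish. Of 18 genes of sex-biased liver expression that are higher in males, a pattern set by pulses of growth hormone, 3 were higher and 14 lower (median -1.04), beside the same 63% of all genes. Cyp4a12b was at -2.96 ± 0.18 (adjusted p = 2.08e-15) and Ugt2b1 at -1.18 ± 0.09 (4.06e-13). Of 19 tested genes that are higher in females, 7 were higher and 5 lower (median -0.10), a share close to that of all genes. Among them Cyp2b9 was at 9.50 ± 0.41 (adjusted p = 6.77e-19; nearly unread in several chow libraries, so its size is imprecise), while Cyp3a44 was at -2.05 ± 0.22 (5.61e-10).

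Of 18 other genes of the IGF system, 14 were tested, and 7 were higher and 4 lower on 16-week HFD over the 5 times (median 0.33), in the comparison where 63% of all genes passed. Lrp1, an endocytic receptor, was at 0.84 ± 0.09 (adjusted p = 1.42e-09) and Igf2r, which clears IGF-II, at 0.33 ± 0.07 (0.000191). Grb14, an adaptor that inhibits the insulin receptor, was at -0.57 ± 0.05 (9.88e-12), and the receptor substrate Irs1 at -0.43 ± 0.08 (2.70e-05). Igf1r, the receptor of IGF-I, was low in these livers, at 3.72 ± 0.655 CPM on chow basal (SD, n = 3). It was higher on HFD (0.38 ± 0.09, adjusted p = 0.000304) and lower with metformin on 16-week HFD (-0.91 ± 0.21, 0.00162). In that metformin comparison 5 of the 14 genes were lower and 1 higher, where 28.4% of all genes passed. These values and counts come from the fit with the length and GC trends left in. In that comparison the metformin libraries had length correlations of -0.61, -0.27 and -0.34, and the basal libraries -0.22, 0.07 and 0.15. The part of these trends in the values of Igf1r and the other listed genes was not tested.

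Each member's closest companions over the 14 group means were sought among 9335 genes averaging at least 5 CPM, by Spearman correlation of log2 CPM; these are descriptions over groups that share diets and library preparation. Igfbp2 lay closest to Tspan31, Elovl2 and Mup14 (0.96 each), and Igfbp4 to Eri3 (0.98), Ddost (0.97) and Cnpy3 (0.96). Igfbp7 lay closest to Ptpra (0.97), Col4a1, a basement membrane collagen (0.96), and E430025E21Rik (0.96). Igfbp3 lay closest to Timp3 (0.91), Prkcd (0.89) and Timp2 (0.89), of which Timp3 and Timp2 are inhibitors of matrix metalloproteinases. Ghr lay closest to the hepatocyte enzymes Adh4, D2hgdh and Dpys (0.97 each), and Igfbp1 to Dnajc12, 1200014J11Rik and Atp6ap2 (0.93 each). Igfals lay closest to Jmjd8 (0.90), D0H4S114 (0.88) and Mrps18a (0.88). The lowest maxima were those of Igf1 (Lemd3 and Smek1 0.85, Klhl2 0.84) and Stat5b (Col5a3 0.81, Tagln 0.79, Tmem42 0.78). Among the members themselves the most opposed pairs were Igfbp2 with Igfbp4 (-0.73), Igfbp1 with Ghr (-0.71) and Igfbp1 with Igfbp4 (-0.70).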

How the data were processed

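The deposited tables held raw read counts per gene, which the authors made from paired reads. TopHat 1.4.0, HTSeq and the build mm9 are named in the submitters' processing notes, with no stated order, as is DESeq2 1.0.18. The kit was TruSeq version 1 on polyA RNA, per the labels. The deposited signal values are counts that the authors normalized with CQN and DESeq2, per the labels' file names, and served in 1 alternative only (log2 of the value plus 1, limma 3.58.1). From the counts, genes were kept by filterByExpr (minimum count 10), libraries were scaled by TMM, and all 45 were fitted together in edgeR 4.0.16 (R 4.3.3) with 1 coefficient per group. Comparisons used the quasi-likelihood F test with Benjamini-Hochberg adjustment over all 14067 genes, and a call is an adjusted p below 0.05. SE was taken from the log2 fold change and the F statistic. CPM use TMM-scaled library sizes. The code was tested on simulated data.

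Members and lists were chosen with earlier results of these data known, the sex-biased and marker lists among them. Each main comparison gives all 9 members, by value or as a bound, and of each other list the counts and up to 4 genes among those with the smallest adjusted p; Jak2, Socs2, Cish and Igf1r were named for their roles after their values were seen, and 1 gene that this rule would name is counted in its list but not reported here. Values and counts of the other lists come from the fit reported alone, with the length and GC trends left in. Promoter windows are those of RefSeq, and all 9 members matched by symbol.

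Alternatives were RLE scaling, no filter, a replicate block, offsets that remove trends with GC content and exon length (alone and with the block), fits of only the groups compared, DESeq2 1.42.0, the normalized values, only replicates 1 to 3 at 30 min on HFD, and leaving out each of the 45 libraries. Added after seeing the data were leaving out the first 16-week HFD basal and metformin libraries together, the block in fits of only the groups compared, and, outside metformin, the block with trends removed. RLE scaling moved no member's log2 fold change by more than 0.02. Same-numbered deviations correlated above 0.1 for basal and metformin libraries of 6-week HFD (0.41, 0.16 and 0.30) and of 16-week HFD (0.24, 0.15 and 0.12). They did not for chow basal and chow metformin (-0.04, -0.20 and 0.29). The rule also held for chow basal with 6-week HFD metformin (0.29, 0.13 and 0.25), which differ in diet and drug. It held for 15 with 120 min on chow and on 16-week HFD (0.38, 0.22 and 0.57) too. It therefore does not show that a number marks a pair, and the labels do not say.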

Additional observations from a re-analysis of the deposited data

How the results depend on the processing

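Of 243 member comparisons with a log2 fold change, 67 passed the test as fitted or under an alternative, and 16 more are described with their values. Of 1465 recomputed values of these 83, 1287 kept their direction and their side of the threshold, 98 lost and 58 gained a call, and 22 reversed; the causes were not tested. Of the other 160, none of which passed under any setting, 73 took the other sign at least once. In the mean of the 5 times, Igfals, Igfbp1, Igfbp2, Igfbp4, Igfbp7 and Ghr passed under every alternative run. With length and GC trends removed, reversed values were 0.15 for Igf1 in the basal 16-week comparison, 0.12 for Ghr between 16 and 6 weeks of HFD, -0.01 for Stat5b in that mean, 0.03 for Igf1 between 16-week HFD and chow under metformin, and 0.26 for Stat5b with metformin on 16-week HFD. With the replicate block added they were 0.15, 0.12, -0.03, 0.02 and 0.26, and 0.00 for Igf1 in that mean. Leaving out 1 library put Stat5b with metformin on 16-week HFD between -0.12 and 0.06, Igfbp3 in the basal 16-week comparison between -0.41 and 0.02 (also 0.02 without the first 16-week basal and metformin libraries), Ghr between 16 and 6 weeks of HFD between -0.20 and 0.01, Igfals by diet at 30 min between -0.26 and 0.34, and Igfbp1 after insulin on chow between -0.42 and 0.13 at 15 min and between -0.22 and 0.39 at 60 min.

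Member counts moved as follows, given without the share of all genes passing under each alternative. For 16-week against 6-week HFD, 3 members became 1 with trends removed, 1 with trends removed and the replicate block, and 0 with only the groups compared. For insulin on 16-week HFD at any time, 0 became 1 with the replicate block, 1 with trends removed and the block, and 1 with only replicates 1 to 3 at 30 min, Igfbp3 each time. For metformin on 6-week HFD, 0 became 1 with trends removed, with trends removed and the block, with only the groups compared and with DESeq2, and 2 with only the groups compared and the block. For metformin on 16-week HFD, 1 became 2 with trends removed and 0 with only the groups compared, with or without the block. Under metformin, 16-week HFD against chow went from 3 to 1 with no filter, 0 with only the groups compared and 0 without the first 16-week basal and metformin libraries, and 6-week HFD against chow from 0 to 1 with the block, trends removed, both, only the groups compared or DESeq2. Leaving out single libraries gave 1 to 3 members for 6-week HFD against chow, 0 to 2 for 16-week against 6-week HFD, 0 to 1 for insulin on chow and on 16-week HFD, and under metformin 0 to 2 for 16-week and 0 to 1 for 6-week HFD against chow. With 3 libraries per group, a missed threshold does not show that levels were alike.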
